A study of Mus musculus with 10 samples.

Results

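The brush-border disaccharidases examined here are Lct, Sis, Mgam and Treh. They were taken as the rows of the normalized count table whose gene symbol was one of these names, which gave 4 rows of the 45707 in the table, 1 per gene, each read in all 10 libraries. The rows were taken by name and not by a measured value, but the members were chosen with earlier results of these data known. The table comes from RNA sequencing of whole jejunal tissue from 5 Vil-Cre mice and 5 Vil-Cre:NDI1 mice, with 1 library per mouse. Both groups carried the Villin-Cre transgene, which recombines DNA in intestinal epithelial cells. Vil-Cre:NDI1 mice also carried the yeast NADH dehydrogenase NDI1 behind a lox-stop-lox sequence at ROSA26, and the Vil-Cre mice were the control. All were male littermates of 8 to 12 weeks that had been fasted overnight for 16 to 18 h and gavaged with water 1 h before the jejunum was taken.

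Dietary sugars larger than a monosaccharide cannot cross the enterocyte membrane, and the last step of their digestion takes place at the brush border, the microvillus surface of the enterocyte. Lct encodes lactase-phlorizin hydrolase, which splits milk lactose, and Sis encodes sucrase-isomaltase, which splits sucrose and the branch points of starch fragments. Mgam encodes maltase-glucoamylase, a close relative of Sis that releases glucose from the ends of starch fragments, and Treh encodes trehalase, which splits the fungal and insect sugar trehalose. The glucose that all of them release is taken up through the sodium-glucose cotransporter Slc5a1. Lct is known as a gene of the proximal and middle small intestine that depends on the transcription factor Gata4.

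The libraries held 10145705 to 12371530 reads on genes. NDI1 had 0 or 1 read in each Vil-Cre library and 1002 to 2659 reads in each Vil-Cre:NDI1 library, so the transgene followed the labels. Vil1, which encodes the microvillus protein villin, was at 35067 to 49249 normalized counts in every library. Markers of the ileum, the distal small intestine, differed widely among libraries of this tissue labelled jejunum. The summed level of Fabp6, Slc10a2 and Fgf15 was 239, 916, 11.02, 12.1 and 2101 normalized counts in Vil-Cre 1 to 5 and 7.84, 21.9, 8.71, 1315 and 425 in Vil-Cre:NDI1 1 to 5. Vil-Cre 5 and Vil-Cre:NDI1 4 were therefore the highest of their groups. Fgf15 had no read in 5 of the 10 libraries, the same 5 whose sum was lowest. Vil-Cre 5 was the lowest mouse for all 4 disaccharidase genes, and many values are given with and without it. Of 4 markers of the duodenum, the proximal end, Trpv6 had no read in 9 of the 10 libraries, Pdx1 was at 0 to 8.82 normalized counts, Cybrd1 at 13.7 to 37.2 and Slc40a1 at 15.5 to 95.3. Their summed level was 42.1 to 121 in Vil-Cre and 38.3 to 107 in Vil-Cre:NDI1 mice. In such whole tissue, fewer cells of a type and less RNA per cell cannot be told apart.

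The 250 bases before the annotated start of each gene are shown because Lct varied with Treh and Sis with Mgam as described further on, and because Lct is known to depend on Gata4. The sequences are from RefSeq on GRCm38.p6, are written 5′ to 3′ on the strand of the gene, and end at the base before the start. Capitals mark the letters GATAA (read by GATA factors), GTTAAT (read by HNF1) and TTTAT (read by CDX), searched on both strands.
Lct: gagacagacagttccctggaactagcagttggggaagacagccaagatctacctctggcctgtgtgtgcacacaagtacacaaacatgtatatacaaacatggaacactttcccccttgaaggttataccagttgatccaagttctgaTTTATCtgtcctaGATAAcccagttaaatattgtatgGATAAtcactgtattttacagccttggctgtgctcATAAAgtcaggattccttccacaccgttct
Sis: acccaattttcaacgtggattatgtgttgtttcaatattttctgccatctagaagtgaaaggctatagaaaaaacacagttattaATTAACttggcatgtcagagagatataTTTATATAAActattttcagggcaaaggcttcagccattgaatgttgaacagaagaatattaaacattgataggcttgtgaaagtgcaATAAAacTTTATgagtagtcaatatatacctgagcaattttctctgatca
Mgam: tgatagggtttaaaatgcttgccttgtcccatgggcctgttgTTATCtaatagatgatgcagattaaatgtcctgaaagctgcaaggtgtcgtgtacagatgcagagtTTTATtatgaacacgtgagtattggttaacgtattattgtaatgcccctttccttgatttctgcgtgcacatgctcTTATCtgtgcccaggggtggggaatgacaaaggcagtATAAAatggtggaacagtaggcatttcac
Treh: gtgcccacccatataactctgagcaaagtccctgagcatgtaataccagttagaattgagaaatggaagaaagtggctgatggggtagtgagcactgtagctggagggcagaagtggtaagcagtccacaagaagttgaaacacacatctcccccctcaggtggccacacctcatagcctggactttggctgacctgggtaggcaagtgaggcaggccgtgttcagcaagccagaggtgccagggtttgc
The Lct stretch (chr1:128328319-128328568, minus strand) held 3 matches to GATAA and 2 to TTTAT, 1 of them overlapping a GATAA match in the run TTTATC. Its 3 GATAA matches lay at 101 to 97, 89 to 85 and 65 to 61 bases before the start. The Sis stretch (chr3:72967864-72968113, minus strand) held no GATAA, 1 GTTAAT at 165 to 160 bases before the start and 4 matches to TTTAT. The Mgam stretch (chr6:40628581-40628830, plus strand) held 2 matches to GATAA and 2 to TTTAT. The Treh stretch (chr9:44672983-44673232, plus strand) held none, which says only that these letters are not in this window. Of 32851 promoters searched over the same length, 22.6% held GATAA, 6.43% GTTAAT and 37.3% TTTAT. A match is a description of the letters and not evidence of binding.

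All 4 genes were strongly expressed, and Sis and Mgam were among the most abundant transcripts of the tissue. Positions are those of GENCODE M21 on GRCm38, and levels between genes are compared per kilobase of merged exon. Sis (ENSMUSG00000027790, chromosome 3, 72888557 to 72967863, minus strand) stood at 6951 ± 1124 normalized counts per kilobase (SD, n = 10 mice). Mgam (ENSMUSG00000068587, chromosome 6, 40628831 to 40769123, plus strand) stood at 5607 ± 1143, and Lct (ENSMUSG00000026354, chromosome 1, 128284756 to 128328318, minus strand) at 3502 ± 1261. Treh (ENSMUSG00000032098, chromosome 9, 44673233 to 44686305, plus strand) stood at 2110 ± 703 on the same scale. By this level per kilobase they ranked 82nd, 100th, 160th and 251st of the genes in the table. The exons of Treh share 2 bp with Phldb1 on the opposite strand, and no other member overlaps the exons of another gene. Together the 4 genes took 1.09 ± 0.259% of the reads in Vil-Cre mice and 1.19 ± 0.106% in Vil-Cre:NDI1 mice (SD, n = 5 each).

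**Figure D1:**
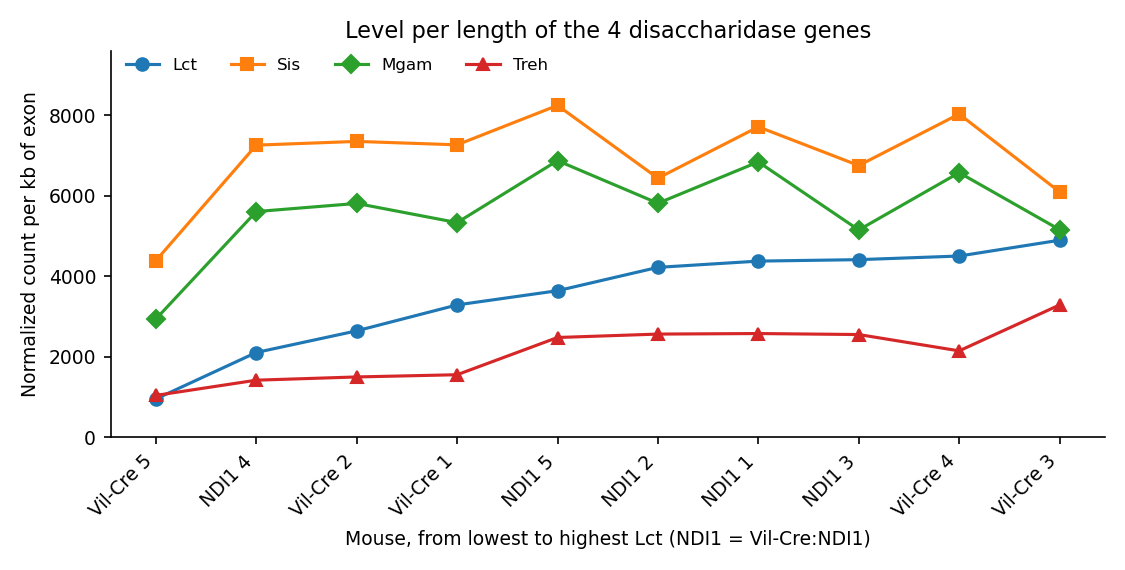
Level of each disaccharidase gene in normalized counts per kilobase of exon (vertical axis) in each of the 10 mice, ordered from lowest to highest Lct (horizontal axis), with 1 line per gene. Sis lies between 4385 and 8242, Mgam between 2935 and 6870, Lct between 950 and 4893 and Treh between 1038 and 3285, and Treh crosses Lct only in Vil-Cre 5.

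Within a mouse the order of the levels per kilobase was nearly fixed. Sis was above Mgam in 10 of 10 mice, by 1.11 to 1.49 times with a median of 1.24. Mgam was above Lct in 10 of 10 mice, and Lct was above Treh in 9 of 10. The exception was Vil-Cre 5, where Lct was at 950 and Treh at 1038 normalized counts per kilobase. Lct moved most against its neighbours, from 0.217 of the level of Sis in Vil-Cre 5 to 0.803 in Vil-Cre 3. Merged exons can be longer than the transcript that is made, so the order between genes depends on the annotation.

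The comparison of genotypes asks whether NDI1 in the epithelium went with a different level of the sugar-digesting enzymes. For none of the 4 genes was a difference detected, and the 95% intervals of the ratio of Vil-Cre:NDI1 to control ran from 0.696 to 2.35 for Lct, 0.886 to 1.64 for Mgam and 0.839 to 1.96 for Treh. With limma, 0 of 4 passed an adjusted p under 0.05 and 0 of 4 had an unadjusted p under 0.05. Over all 14301 genes tested, 1 gene, NDI1 itself, passed the adjusted threshold (0.00699%), and 606 passed the unadjusted one (4.24%). The groups did not overlap in 100 of these genes (0.699%), and they overlapped in all 4 disaccharidase genes. Beside the members, all 11 enterocyte markers tested had a log2 fold change above 0, with a median of 0.23 and 0 called (11 of 11 and a median of 0.17 with Vil-Cre 5 left out), while the median over all genes tested was 0.0052 with 51.2% above 0. The summed enterocyte marker level was 385698 to 613737 normalized counts in Vil-Cre mice and 554448 to 730957 in Vil-Cre:NDI1 mice. All 6 goblet cell markers had a log2 fold change below 0 (median -0.21), with a summed level of 87330 to 114350 and 67284 to 99191 in the same order. Markers of tuft cells (4 of 4 tested), B and plasma cells (4 of 4), fibroblasts (5 of 5), hepatocytes (5 of 5) and ileum (2 of 2) were below 0 as well. The summed hepatocyte level was 64.7 to 1394 against 46.1 to 263. The median of B and plasma cells went from -0.63 to -0.25 without Vil-Cre 5, and that of the ileum from -1.1 to -0.12. Markers of Paneth cells, T cells and smooth muscle had 1 above 0 and 4 below each. Those of enteroendocrine cells had 3 and 3, stem and cycling crypt 3 and 2, adipocytes 2 and 2, and duodenum 1 and 1. The 1 pancreatic acinar marker tested was above 0. The part of these in the values that follow was not tested, except as follows. The ileum marker level, there the mean log2 value of Fabp6 and Slc10a2, was entered in a fit given with Lct. It was also removed from the correlations between members. The enterocyte markers were used in place of Vil1 in the ratios to it.

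Lct, the lactase gene, was at 21050, 16925, 31347, 28829 and 6088 normalized counts in Vil-Cre 1 to 5. In Vil-Cre:NDI1 1 to 5 it was at 28023, 27027, 28254, 13478 and 23310. Vil-Cre 5 was far below every other mouse, Vil-Cre:NDI1 4 was the lowest of its group, and the control group spanned all values of the other. The means were 20848 ± 10090 and 24018 ± 6217 (SD, n = 5 each). The log2 fold change of log2(value + 1) was 0.36 (standard error 0.40, 95% interval -0.52 to 1.23, adjusted p = 0.998 with limma; exact permutation test, two-sided, p = 0.571). This sign rested on 1 mouse. Leaving out Vil-Cre 5 turned it to -0.038, and with the ileum marker level as a covariate, a fit added after the data were seen, it was 0.16 (standard error 0.25, adjusted p = 0.960 with limma). That fit gave 0.14 for Sis, 0.23 for Mgam and 0.23 for Treh. DESeq2 on the 8 libraries without Vil-Cre 3 and Vil-Cre 4, which hold the 2 highest control values of Lct, gave 0.71 with an adjusted p of 0.372. Those 2 are also the controls with few ileum transcripts.

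Sis, the sucrase-isomaltase gene, was at 54211, 54844, 45484, 59920 and 32732 normalized counts in Vil-Cre 1 to 5 and at 57546, 48025, 50374, 54153 and 61521 in Vil-Cre:NDI1 1 to 5. Vil-Cre 5 was again the lowest, Vil-Cre:NDI1 5 the highest, and the other 8 mice were interleaved. The means were 49438 ± 10684 and 54324 ± 5420 (SD, n = 5 each), with a log2 fold change of 0.16 (standard error 0.17, 95% interval -0.21 to 0.53, adjusted p = 0.998 with limma; exact permutation test, p = 0.421). As a ratio this interval runs from 0.864 to 1.45, the narrowest of the 4 genes.

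Mgam, the maltase-glucoamylase gene, was at 46398, 50545, 44878, 57201 and 25548 normalized counts in Vil-Cre 1 to 5 and at 59524, 50584, 44812, 48787 and 59794 in Vil-Cre:NDI1 1 to 5. Vil-Cre 5 was below all other mice by a wide margin, and 2 Vil-Cre:NDI1 mice were above every control. The means were 44914 ± 11832 and 52700 ± 6688 (SD, n = 5 each), with a log2 fold change of 0.27 (standard error 0.20, 95% interval -0.18 to 0.72, adjusted p = 0.998 with limma; exact permutation test, p = 0.222). With Vil-Cre 5 left out these log2 fold changes were 0.080 for Mgam, 0.020 for Sis and 0.17 for Treh.

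Treh, the trehalase gene, was at 3178, 3065, 6727, 4392 and 2126 normalized counts in Vil-Cre 1 to 5 and at 5274, 5246, 5223, 2901 and 5072 in Vil-Cre:NDI1 1 to 5. Vil-Cre:NDI1 4 lay among the low controls while the other 4 Vil-Cre:NDI1 mice lay close together, and Vil-Cre 3 was the highest of all 10. The means were 3898 ± 1775 and 4743 ± 1033 (SD, n = 5 each), with a log2 fold change of 0.36 (standard error 0.28, 95% interval -0.25 to 0.97, adjusted p = 0.998 with limma; exact permutation test, p = 0.310). The DESeq2 Wald test on the 8 libraries without Vil-Cre 3 and Vil-Cre 4 gave Treh a log2 fold change of 0.77 and an adjusted p of 0.0230, the only setting in which a member passed the adjusted threshold. In that fit 276 of 15601 genes with an adjusted p passed (1.77%), against 0.00699% with limma on all 10 libraries. Those 2 libraries also hold the 2 highest control values of Treh, and they are the controls with few ileum transcripts (marker sums of 11.02 and 12.1). The controls left had sums of 239, 916 and 2101, against 7.84, 21.9, 8.71, 1315 and 425 in Vil-Cre:NDI1 1 to 5. The part of this imbalance in the 8-library values was not tested. The edgeR quasi-likelihood test on the same 8 libraries gave 0.76 with an adjusted p of 0.427, where 1 of 14830 genes passed (0.00674%). Over all settings tried the adjusted p of Treh ran from 0.0230 to 1.00.

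**Figure D2:**
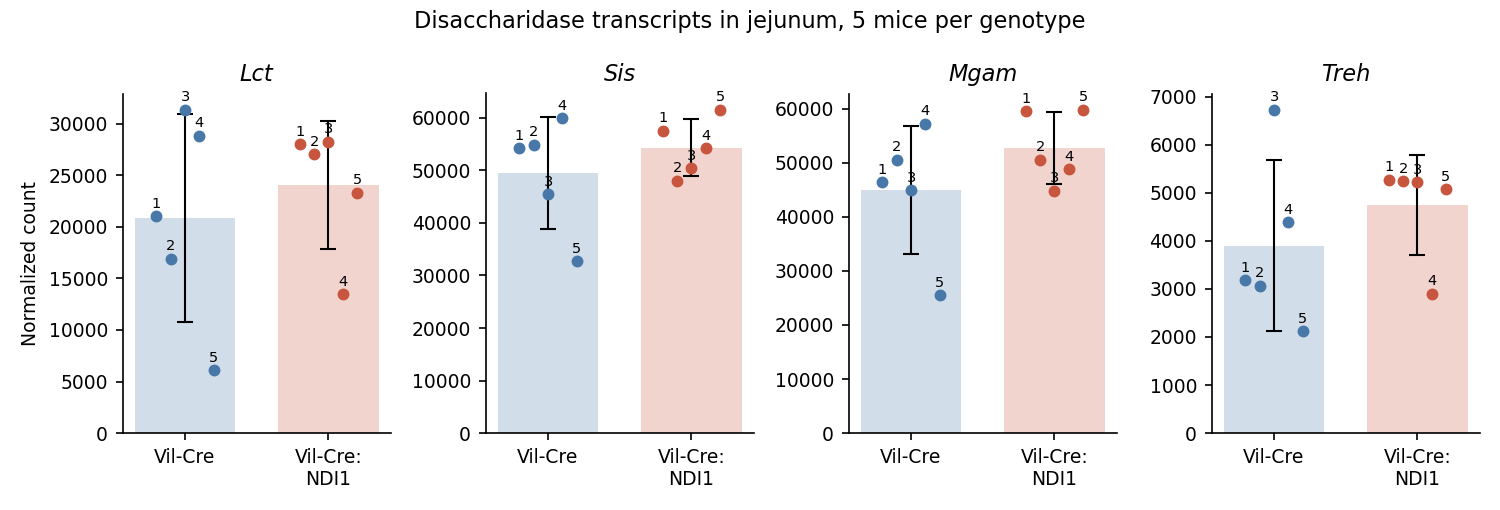
Normalized counts of Lct, Sis, Mgam and Treh (vertical axes, each from 0) in the 5 Vil-Cre and 5 Vil-Cre:NDI1 mice. Points are mice with their replicate number, bars are group means and error bars are 1 SD. In each gene the groups overlap and Vil-Cre 5 is the lowest mouse of all 10.

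Taken relative to Vil1, to set each gene against the amount of brush border message in the same library, the differences were smaller. The mean log2 ratio to Vil1 differed between genotypes by 0.25 for Lct, 0.053 for Sis, 0.16 for Mgam and 0.25 for Treh (exact permutation tests over 252 assignments, two-sided, unadjusted p = 0.651, 0.762, 0.476 and 0.452). Leaving out Vil-Cre 5 gave -0.11, -0.048, 0.012 and 0.10, so the sign turned for Lct and Sis. With the enterocyte markers in place of Vil1 the differences were 0.085, -0.11, 0.00081 and 0.089. The 6 ratios between pairs of members also gave no difference that passed. The log2 difference was 0.19 for Lct to Sis (exact p = 0.619, adjusted over 6 pairs 0.971) and -0.20 for Sis to Treh (exact p = 0.548, adjusted 0.971), and the smallest exact p was that of Sis to Mgam at -0.11 (0.206, adjusted 0.971). Lct to Sis turned to -0.058 without Vil-Cre 5, and Sis to Treh went to -0.44 without Vil-Cre 3. The ratio of Lct to Treh differed by -0.0036, with an adjusted exact p of 0.992.

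**Figure D3:**
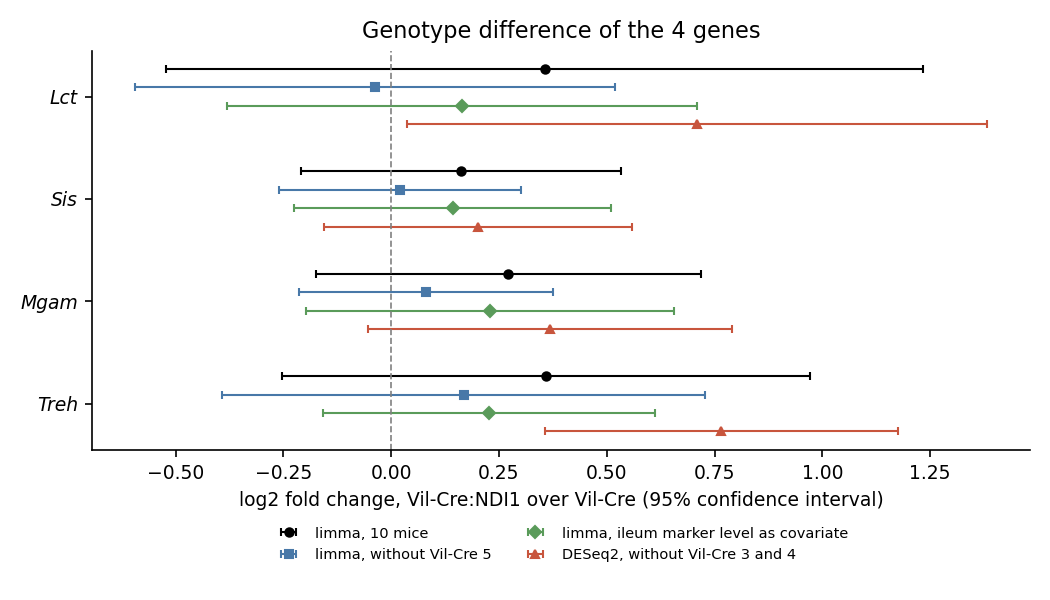
Log2 fold change (Vil-Cre:NDI1 minus Vil-Cre, horizontal axis) of the 4 genes with 95% intervals in 4 fits, limma over 10 mice, limma without Vil-Cre 5, limma with the ileum marker level as a covariate, and DESeq2 without Vil-Cre 3 and 4. All limma intervals cross 0, and those of DESeq2 for Lct and Treh, unadjusted for the number of genes, do not.

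The spread between mice of 1 genotype differed among the genes. Lct spanned 5.15-fold over the 10 mice, Treh 3.16-fold, Mgam 2.34-fold and Sis 1.88-fold, against 1.40-fold for Vil1. Without Vil-Cre 5 the spans were 2.33, 2.32, 1.33 and 1.35-fold in the same order, and that of Vil1 stayed at 1.40-fold. Only Lct and Treh then spanned more than Vil1. Within genotype, the SD of the log2 value was 0.74 for Lct, 0.52 for Treh, 0.34 for Mgam and 0.27 for Sis. The SD of Lct lay at the 97.4th percentile of genes with a mean of at least 1000 normalized counts, and that of Treh at the 93.8th. Counting error was far smaller, since the library with the fewest reads of Lct held 6268 (a counting CV of 1.26%) and that with the fewest of Treh held 2189 (2.14%). 

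Lct varied with Treh, and Sis with Mgam. Over the 10 mice, Pearson's r of the log2 values was 0.902 for Lct and Treh (permutation test, p = 8.0e-05, adjusted over 6 pairs 0.00048) and Spearman's rho was 0.842 (p = 0.0038, adjusted 0.0147). For Sis and Mgam, r was 0.951 (permutation test, p = 0.00050, adjusted 0.0015) and rho 0.830 (p = 0.0049, adjusted 0.0147). Without the 2 mice farthest from the median of the first gene, r was 0.870 for Lct and Treh and 0.759 for Sis and Mgam. With genotype means removed, these were 0.897 and 0.948, and relative to Vil1 they were 0.881 and 0.912. Both genes of a pair were read in the same libraries. Without Vil-Cre 5 alone r was 0.888 and 0.800. Lct was also low in the libraries with many ileum transcripts. So was Treh, except in Vil-Cre:NDI1 5, where it was at 5072 normalized counts against 4392 in Vil-Cre 4, which has few. A further step, added after the data were seen, removed the ileum marker level from each gene. In it r was 0.702 for Lct and Treh and 0.961 for Sis and Mgam. Lct then had a higher r with Mgam (0.848) and with Sis (0.822) than with Treh. Sis and Treh had 0.345, and Mgam and Treh 0.486. These values are over all 10 mice and were not repeated without Vil-Cre 5. With the ileum level left in, leaving out that mouse took r to 0.098 for Lct and Mgam and to -0.24 for Lct and Sis. The 5 libraries with few and the 5 with many ileum transcripts are too few for a correlation within either set.

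Across the pairs, with the ileum level not removed, the relation rested on 1 or 2 mice. Whether it also did with that level removed was not tested. Lct and Mgam had r = 0.783 (permutation test, p = 0.0407, adjusted 0.0798) but rho = 0.188, and r fell to -0.018 without Vil-Cre 5 and Vil-Cre:NDI1 4. Lct and Sis had r = 0.662 (p = 0.0737, adjusted 0.0884, permutation test), rho = 0.127, and r = -0.33 without these 2 mice. Mgam and Treh had r = 0.60 and Sis and Treh r = 0.404, with rho of 0.285 and 0.030, and neither passed. The Lct to Sis count ratio spanned 0.186 in Vil-Cre 5 to 0.689 in Vil-Cre 3, and Sis to Mgam spanned 0.949 to 1.28. Lct to Treh spanned 2.86 in Vil-Cre 5 to 6.62 in Vil-Cre 1, and Mgam to Treh spanned 6.67 in Vil-Cre 3 to 16.8 in Vil-Cre:NDI1 4, a similar width.

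**Figure D4:**
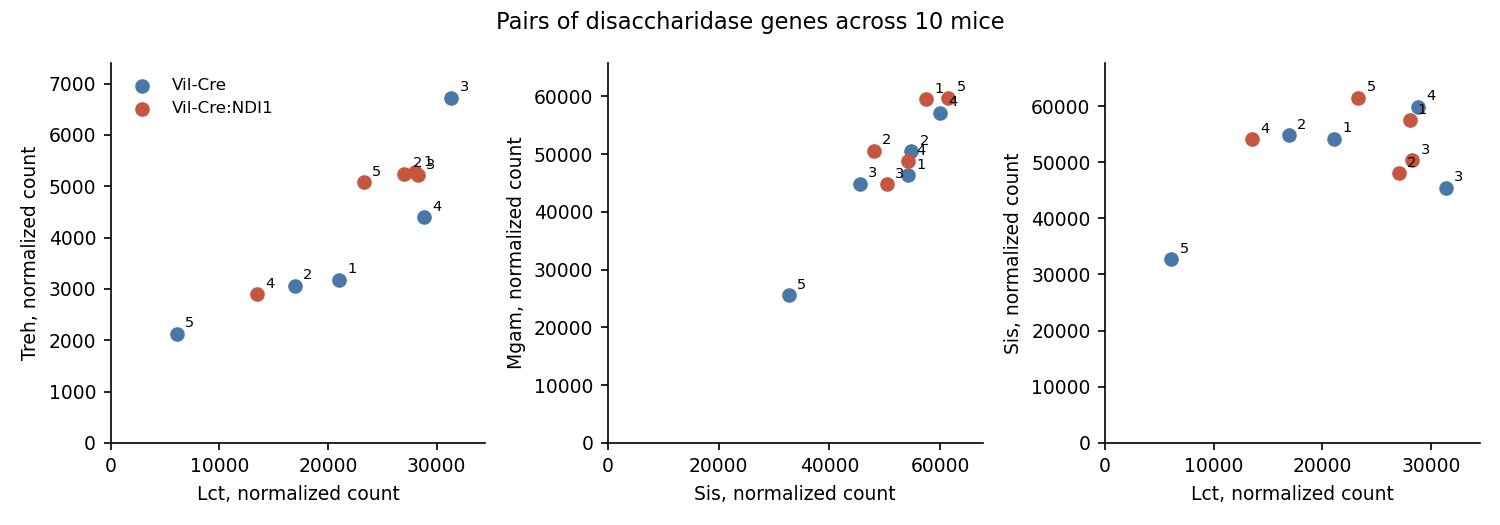
Normalized counts of 3 pairs of disaccharidase genes on linear axes from 0, 1 numbered point per mouse coloured by genotype. Treh rises with Lct and Mgam with Sis, while Sis shows no rise with Lct outside Vil-Cre 5 (r = -0.24 without it).

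Among the 9120 other genes with a mean of at least 100 normalized counts, Mgam ranked 3rd by r for Sis, and Sis 3rd for Mgam, but without Vil-Cre 5 they ranked 55th and 40th. Treh ranked 145th for Lct and Lct 174th for Treh, and 173rd and 129th without that mouse. The 5 genes most like Lct were Cyp2d26 (r = 0.984), Slc5a11 (0.980), Gata4 (0.977), Phyh (0.974) and Ugt2a3 (0.974), with r of 0.92 to 0.96 without Vil-Cre 5. Among the 5 most like Sis were Zc3h4 (0.953), Gab1 (0.951), Mon2 (0.931) and Slc5a1 (0.922), and among those most like Mgam were Slc5a1 (0.954), Slc35g1 (0.944), Tbc1d22a (0.941) and Akr1a1 (0.940). The 5 most like Treh were Atp5g3 (0.994), Cbr1 (0.983), Gsto1 (0.982), Gstm6 (0.982) and Dhrs1 (0.981). These are descriptions over 10 mice and say nothing of shared control. Slc5a1 had r of 0.67 with Sis and 0.76 with Mgam without Vil-Cre 5.

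Gata4 was one of the genes most like Lct, and Gata6, another GATA factor, had r = 0.878 with it. The letters GATAA are not particular to Gata4, and they stand in the Lct and Mgam stretches but not in that of Treh. Gata4 was at 1123, 1060, 1364, 1319 and 703 normalized counts in Vil-Cre 1 to 5 and at 1427, 1273, 1443, 896 and 1225 in Vil-Cre:NDI1 1 to 5. Both Lct and Gata4 were lowest in Vil-Cre 5 and next lowest in Vil-Cre:NDI1 4. The 5 libraries with the highest ileum marker sums (Vil-Cre 5, Vil-Cre:NDI1 4, Vil-Cre 2, Vil-Cre:NDI1 5 and Vil-Cre 1) were the 5 with the lowest Lct. Treh, in turn, was lowest in Vil-Cre 5 and Vil-Cre:NDI1 4. The marker sums fell into separate ranges, 7.84 to 21.9 in 5 libraries and 239 to 2101 in the other 5, so no correlation with them is given, and the r of Gata4 with Lct is over both ranges. The part that the position of the sampled tissue plays in these values was not tested.

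**Figure D5:**
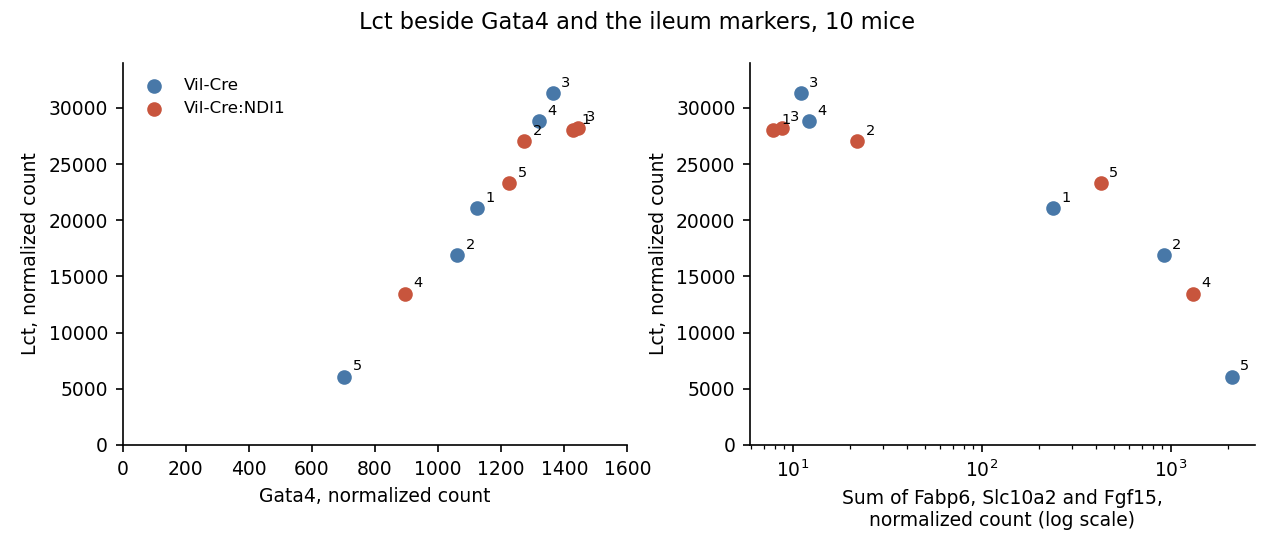
Normalized counts of Lct against those of Gata4 and against the summed ileum markers Fabp6, Slc10a2 and Fgf15, 1 numbered point per mouse coloured by genotype, with the marker sum on a log axis. Lct lies lowest in Vil-Cre 5 (6088), which has the highest ileum sum (2101) and the lowest Gata4 (703).

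None of the genes in 5 lists of the surrounding pathway passed an adjusted p under 0.05 with limma. Of 14 genes of sugar transport and fructose handling, 11 had a log2 fold change above 0 (median 0.16) and 1 an unadjusted p under 0.05. Without Vil-Cre 5 this held for 6 of 14, with a median of -0.057. Slc5a1, the sodium-glucose cotransporter, was at 40510 ± 7590 normalized counts in Vil-Cre and 49132 ± 3628 in Vil-Cre:NDI1 mice (SD, n = 5 each). Its log2 fold change was 0.30, with an unadjusted p of 0.0739 and an adjusted p of 0.998 with limma, and it was 0.17 without Vil-Cre 5. Slc5a9, another sugar cotransporter, was the gene with the smallest p of this list (603 ± 83.1 against 758 ± 113 normalized counts, log2 fold change 0.33, adjusted p = 0.998 with limma). Slc2a5, the fructose transporter of the brush border, had a log2 fold change of 0.45 (0.25 without Vil-Cre 5), and Khk, which phosphorylates fructose, had 0.088 (-0.099). Over the 10 mice Khk had r = 0.928 with Lct, a description with no test.

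Of 11 brush-border peptidases tested, 8 were above 0 (median 0.19) and 2 had an unadjusted p under 0.05, namely Mme (log2 fold change 0.60) and Ggt1 (0.31). Without Vil-Cre 5 the median was 0.12, Mme had 0.38, Ggt1 0.25, and neither had an unadjusted p under 0.05. Anpep, aminopeptidase N, was the most abundant at 87107 ± 14096 and 101476 ± 25742 normalized counts (SD, n = 5 each), with a log2 fold change of 0.20 (0.12 without Vil-Cre 5). Naaladl1 had -0.13. Of 12 genes of apical trafficking, 9 were above 0 (median 0.11, or 8 with a median of 0.044 without Vil-Cre 5), with Rab11a the only one at an unadjusted p under 0.05 (log2 fold change 0.26), while Lgals4, Myo1a, Cdhr5 and Anxa2 had -0.0086, 0.11, 0.073 and 0.24. Of 15 enterocyte transcription factors tested, 7 were above 0 (median -0.0031) and 1 had an unadjusted p under 0.05, Gata6 at 0.29 (0.19 without Vil-Cre 5). Hnf4a, Klf4, Hnf4g and Cdx1 had 0.10, 0.033, 0.14 and -0.14, and Hnf4g was at -0.0037 without Vil-Cre 5. Of 10 other glycoside hydrolases tested, 6 were above 0 (median 0.018, or 4 with a median of -0.027 without Vil-Cre 5) and 0 had an unadjusted p under 0.05. They are mostly lysosomal or endoplasmic reticulum enzymes, and Ganab, Glb1 and Gaa had 0.0046, -0.10 and -0.18. These counts stand beside the unadjusted background of 4.24%, and the lists were chosen with earlier results of these data known.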

How the data were processed

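RNA of whole jejunum from 10 mice was sequenced with single-end reads of 100 cycles. Trimming with trimGalore!, alignment by STAR to GRCm38 plus NDI1, Salmon quantification and scaling by DESeq2 size factors were done by the authors, and the deposited values are a signal, the normalized count of each gene. The annotation release and strand setting are not given in the sources used here. In every library 100% of non-zero values were whole multiples of 1 read (tolerance 0.01), but for Vil-Cre 3 and 4 the step is too near 1 to be told from rounding, so count tests were also run on the other 8 libraries. Of 45707 identifiers, 45143 were found in GENCODE M21.

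Genotypes were compared with limma 3.58.1 (R 4.3.3, eBayes with trend) on log2(value + 1) in the 14301 genes that reached 10 in 5 or more mice. Benjamini-Hochberg adjustment over all of them and a threshold of 0.05 were used. Fold changes on this scale understate those of low genes. Single values used exact permutation over 252 assignments (smallest p 0.00794), and correlations over the 10 mice used 100000 permutations. Alternatives were other pseudocounts (0.1, 8), filters, scalings, limma settings, a replicate block, DESeq2 1.42.0 and edgeR 4.0.16 on recovered reads, leaving out each mouse, and, added after the data were seen, the 8-library count tests, an ileum covariate, and list values without Vil-Cre 5. Scripts were tested on simulated data.

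The rule named the 4 members, NDI1, Vil1, the 5 genes most like each member, and in each of 5 pathway lists the 3 highest per kilobase and the 2 with the smallest p. Of the genes that it takes, 4 are not reported here. The members and lists were chosen with earlier results of these data known. The intervals of the fold changes come from fits over mice and include the spread between mice. The counting CVs cover counting error only.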

Additional observations from a re-analysis of the deposited data

Results flagged for a closer look

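In 105 groups of 5 mice, the named genes and ratios in each genotype were examined for a mouse set apart from the other 4 (Dixon's gap over range above 0.71). Chance flags about 1 group in 20, or 5.25 of these, and 8 were found. The groups include genes picked for likeness to a member and ratios that share members. They are not independent, so 8 cannot be weighed against 5.25. Treh in Vil-Cre:NDI1 4 was at 2901 normalized counts, against 5072 to 5274 in the other 4 mice of its genotype. Vil1 was at 49249 in Vil-Cre:NDI1 5 against 41252 to 43428, so the ratios to Vil1 of that mouse rest on a high denominator. Of the genes most like a member, Slc5a1 was at 27464 in Vil-Cre 5 against 40962 to 45819 in the other controls, and Akr1a1 at 4977 in Vil-Cre 5 against 6051 to 6404. In Vil-Cre:NDI1 4, Ugt2a3 was at 762 against 1340 to 1556, Atp5g3 at 5568 against 6674 to 6902 and Cbr1 at 1212 against 2010 to 2202. Of the apical trafficking genes, Lgals4 was at 39832 in Vil-Cre:NDI1 5 against 31374 to 32856.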

How the results depend on the processing

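The log2 fold change of Lct turned to -0.038 without Vil-Cre 5 and ran from -0.038 to 0.55 with each mouse left out. The corresponding ranges were 0.020 to 0.24 for Sis, 0.080 to 0.37 for Mgam and 0.17 to 0.58 for Treh. Relative to Vil1 they were -0.11 to 0.50 for Lct, -0.048 to 0.094 for Sis, 0.012 to 0.23 for Mgam and 0.10 to 0.53 for Treh, and Sis turned to -0.11 with the enterocyte markers as the reference. The ratios ran from -0.058 to 0.41 for Lct to Sis, -0.12 to 0.27 for Lct to Mgam, -0.21 to 0.096 for Lct to Treh, -0.14 to -0.060 for Sis to Mgam, -0.44 to -0.094 for Sis to Treh and -0.30 to 0.026 for Mgam to Treh. Treh reached 0.77 with DESeq2 on 8 libraries. The cause was not tested for any of these. The number of genes past the threshold was 1 with limma. It was 2 with a minimum of 50, 2 with array weights, 3 with the ileum covariate, 31 with DESeq2, 276 with DESeq2 on 8 libraries, and 1 to 3 with each mouse left out (3 without Vil-Cre:NDI1 5, 2 without Vil-Cre:NDI1 1). With a replicate block the log2 fold changes were 0.36, 0.16, 0.27 and 0.36 for Lct, Sis, Mgam and Treh (adjusted p = 0.999 with limma) and 1 gene passed. Deviations of same-numbered mice correlated at -0.12 to 0.14, so no pairing by number was seen. Other differences between mice could hide one, so these values cannot exclude it. The other settings kept direction and side of the threshold for all 4 genes, though Lct was at 0.20 with DESeq2 and with edgeR on all 10 libraries, and Sis at 0.073 with array weights and 0.099 with equal totals.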
